A study of Mus musculus with 2 samples.

Results

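The 10 genes described here, *Fos*, *Fosb*, *Jun*, *Junb*, *Egr1*, *Atf3*, *Ier2*, *Ier3*, *Myc* and *Dusp1*, are immediate early genes, and their transcripts were compared in control and *Drp1*LiKO primary hepatocytes. Every transcript probe that the array design assigns to these names was taken, which gave 15 of 56605 probes and 10 of 37074 gene names. The control mice, called wild type in the labels, were *Drp1* flox/flox littermates on a C57BL/6 background. The *Drp1*LiKO mice carried the same floxed alleles and 1 copy of a Cre transgene driven by the albumin promoter, which is active in hepatocytes. The age and the number of mice behind each array are not given in the sources used here. Livers were perfused with collagenase, and the cells that pelleted at low speed were seeded on collagen in high glucose medium with 10% fetal bovine serum and 1 μM insulin. The medium was changed at 4 h and the cells were harvested 24 h after seeding, with no lipopolysaccharide. Cy3-labeled RNA of each genotype was read on 1 array, and both arrays shared a slide and a scan. The comparison asks which transcripts differ when hepatocytes lack DRP1, the GTPase that divides mitochondria. Since neither genotype had a replicate, the differences were not tested and describe these 2 arrays.

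Immediate early genes are transcribed within minutes of a stimulus, from factors already present in the cell, without the need for new protein. FOS and JUN proteins pair through leucine zippers to form AP-1, which binds DNA and regulates genes of growth, matrix turnover and inflammation. EGR1, ATF3 and MYC are transcription factors induced along with AP-1, and DUSP1 is a phosphatase that switches off the kinases that induced them. In the liver this program is best known from regeneration after partial hepatectomy, and growth factors, cytokines and cell stress also induce it in cultured hepatocytes.

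The stimulus reaches these genes through short elements near their start sites. The RefSeq promoter table (GRCm38.p6) held a window for 7 of the 10 genes, and *Egr1*, *Ier2* and *Myc* had none. The 250 bases before the start site are shown for the 3 genes with a higher signal in *Drp1*LiKO cells (*Ier3*, *Atf3*, *Dusp1*) and for *Fos* and *Jun*, the AP-1 genes whose ratios lay nearest to 0. Their windows are chr17:35821463-35821712 (plus strand), chr1:191183334-191183583 (minus), chr17:26508473-26508722 (minus), chr12:85473640-85473889 (plus) and chr4:95052223-95052472 (minus). The sequences run 5′ to 3′ along the gene and end 1 base before the start site, and capitals mark matches on either strand to the elements described after them.
Ier3: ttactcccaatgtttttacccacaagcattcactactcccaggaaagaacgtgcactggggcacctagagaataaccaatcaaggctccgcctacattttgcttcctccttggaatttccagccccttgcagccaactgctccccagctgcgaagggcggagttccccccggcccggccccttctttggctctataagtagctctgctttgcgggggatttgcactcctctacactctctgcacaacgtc
Atf3: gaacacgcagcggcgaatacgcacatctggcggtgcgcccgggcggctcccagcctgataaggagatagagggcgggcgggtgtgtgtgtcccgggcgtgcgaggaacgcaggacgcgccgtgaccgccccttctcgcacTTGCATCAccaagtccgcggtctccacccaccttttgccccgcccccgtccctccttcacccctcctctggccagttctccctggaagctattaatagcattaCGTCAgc
Dusp1: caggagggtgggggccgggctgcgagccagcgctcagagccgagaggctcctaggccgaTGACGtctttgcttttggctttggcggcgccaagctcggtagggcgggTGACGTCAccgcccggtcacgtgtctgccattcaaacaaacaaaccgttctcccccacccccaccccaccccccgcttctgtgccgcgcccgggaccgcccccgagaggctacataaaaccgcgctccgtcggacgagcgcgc
Fos: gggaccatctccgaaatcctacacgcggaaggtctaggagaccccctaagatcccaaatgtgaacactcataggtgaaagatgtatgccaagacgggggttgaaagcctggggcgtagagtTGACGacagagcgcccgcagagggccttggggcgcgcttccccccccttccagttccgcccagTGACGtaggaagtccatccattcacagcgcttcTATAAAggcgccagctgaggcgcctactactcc
Jun: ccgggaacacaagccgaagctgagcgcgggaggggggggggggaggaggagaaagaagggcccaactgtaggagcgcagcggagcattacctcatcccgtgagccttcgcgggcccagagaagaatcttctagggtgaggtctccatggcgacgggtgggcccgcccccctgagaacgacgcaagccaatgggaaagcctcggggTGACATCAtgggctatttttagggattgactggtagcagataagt

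The searched elements were the cAMP response element TGACGTCA, its half-site TGACG (which lies within it), the element TGACATCA known from the *JUN* promoter, the AP-1 site TGANTCA, the C/EBP-ATF response element TGATGNAA, the TATA box TATAAA and the CArG box of serum response factor. *Dusp1* held the whole cAMP response element 143 bases before the start, in which both half-sites overlap, and another half-site at 191 bases. The whole element stood in 1.55% of the 32851 promoter windows of this length. *Fos* held half-sites at 129 and 66 bases and a TATA box at 33 bases. A half-site stood in 17.8% of all windows and a TATA box in 12.4%. *Jun* held TGACATCA at 45 bases, an element of 2.93% of windows. *Atf3* held a C/EBP-ATF response element at 110 bases, on the opposite strand, and a half-site 7 bases before the start. The first of these stood in 3.45% of windows. *Fosb* and *Junb*, not printed, held a half-site at 60 and at 106 bases. The window of *Ier3* matched none of the 7 elements. No window of the 7 genes held the AP-1 site (6.75% of all windows) or the CArG box (1.47%). Elements farther than 250 bases before the start site were not searched. A match is a description of the letters and not a measured site.

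All 10 genes were detected on both arrays. The processed signals of their brightest probes, which are intensities after all corrections by the scanner software, ran from 79.9 to 20104 on the control array. On the *Drp1*LiKO array they ran from 82.1 to 23521. Signals of different probes depend on the probe sequence, so the genes were not ranked by level. To set the arrays against each other, each log2 signal was taken relative to the 75th percentile of its array, which was a signal of 313 on the control array and 356 on the *Drp1*LiKO array. The log2 ratio is the difference of these scaled values, *Drp1*LiKO minus control. No spot of the 15 probes was saturated or marked as an outlier. Each probe was printed once per array. 2 errors of the ratio can be given: the noise between spots, from probes printed 10 times with a similar signal, and the error that the scanner software states for each spot. For the 10 ratios, the first ran from 0.064 to 0.23 and the second from 0.20 to 0.23 on the log2 scale. Neither holds the spread between animals or cultures.

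**Figure D1:**
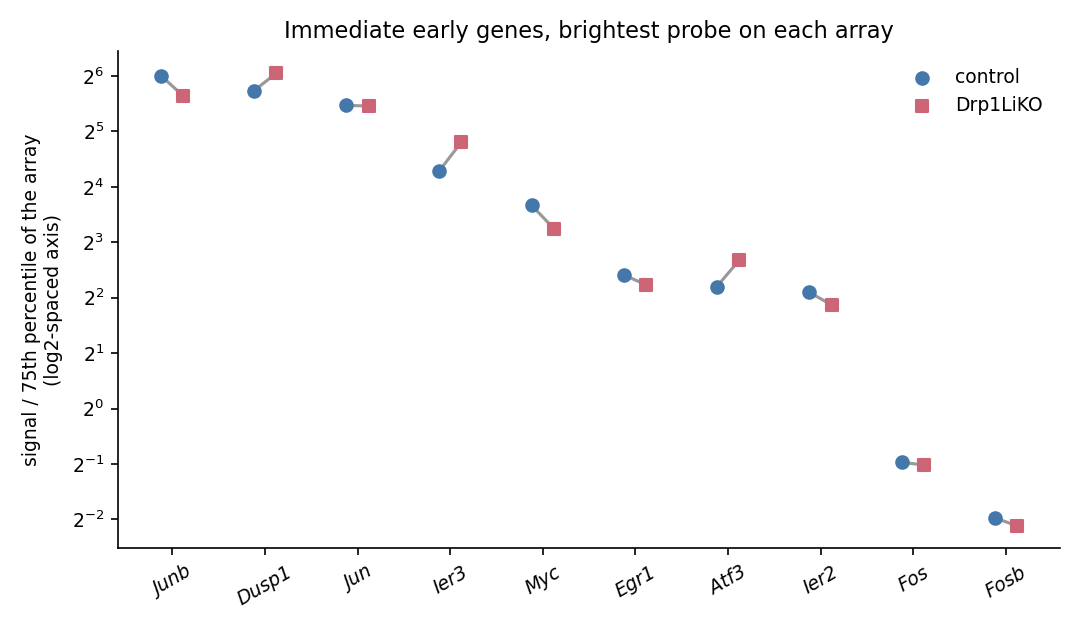
Signal of the brightest probe of each gene divided by the 75th percentile of its array (vertical axis, log2-spaced) in control cells (blue circles) and *Drp1*LiKO cells (red squares), 1 array each, with genes ordered by the control value. The pairs of points lie close together, with the scaled signal of *Dusp1*, *Ier3* and *Atf3* higher and that of 7 genes lower in *Drp1*LiKO cells. For *Fos*, *Fosb* and *Jun* the difference was smaller than the noise between spots.

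The immediate early genes differed between the genotypes by about as much as other genes on the arrays did. Of the 10 genes, 3 had a higher and 7 a lower scaled signal in *Drp1*LiKO cells, with log2 ratios from -0.42 (*Myc*) to 0.52 (*Ier3*). The median was -0.09, beside -0.05 over all 20165 genes compared, of which 44.6% had a ratio above 0. None of the 10 genes reached a Z score of 2, the threshold of the study, which corresponds to a 2.46-fold higher or a 2.48-fold lower signal. Of all genes, 3.5% were past it with a higher and 2.81% with a lower signal in *Drp1*LiKO cells, and 5.43% of all probes were past it in either direction. Their Z scores ran from -0.63 to 0.81. None of the genes, and none of their 13 detected probes, was past 1.5-fold either, a size that 20.6% of all genes passed. Among the 12902 genes detected on both arrays within the signal range of the 10 genes, 15.3% were past 1.5-fold. The size of the ratio, regardless of direction, had a median of 0.27 in the 10 genes, 0.24 in all genes and 0.22 in those of the same signal range. The interval from *Myc* to *Ier3* held 72.6% of all genes.

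**Figure D2:**
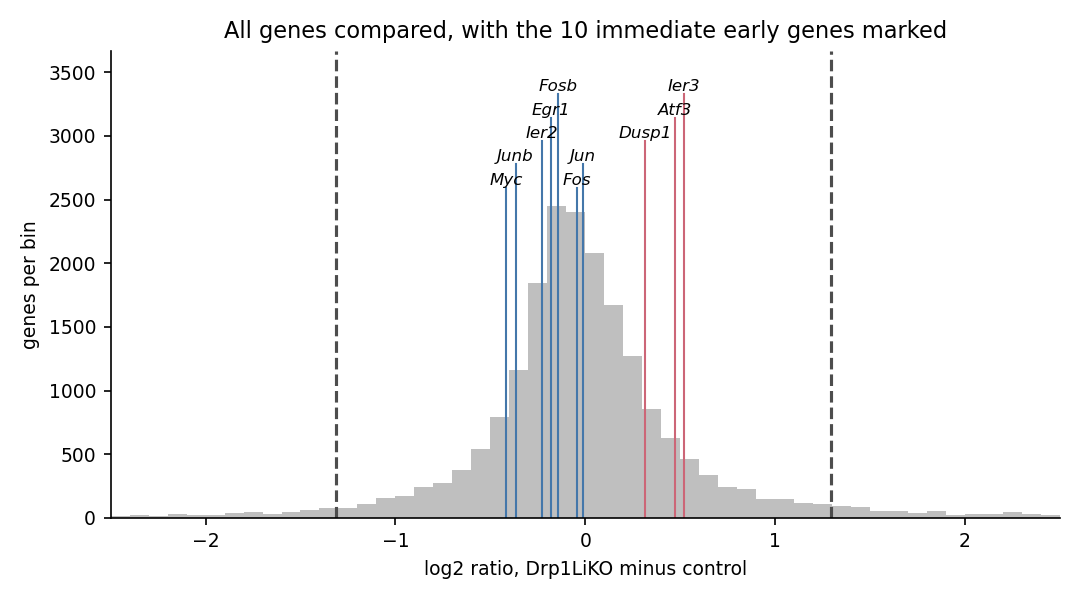
Number of genes (vertical axis) by log2 ratio, *Drp1*LiKO minus control (horizontal axis, bins of width 0.1, shown from -2.5 to 2.5), with the 10 immediate early genes marked by vertical lines, red above 0 and blue below, and dashed lines at a Z score of 2 in each direction. The 10 genes sit in the central part of the distribution, between -0.42 and 0.52, away from the dashed lines.

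The FOS family members, which cannot pair with each other and bind DNA together with a JUN protein, were nearly level. *Fos* (NM_010234, probe at mm9 chr12:86818118-86818177) gave a control signal of 160 and a *Drp1*LiKO signal of 176, or -0.05 as a scaled log2 ratio. *Fosb* (NM_008036, chr7:19888168-19888227) had 79.9 and 82.1, a log2 ratio of -0.14. Both ratios were smaller than the noise between spots, which was 0.14 for *Fos* and 0.23 for *Fosb*, so neither has a direction on these arrays. A second *Fosb* probe was not well above background on either array.

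*Jun* (NM_010591, chr4:94716928-94716987), which encodes the main partner of FOS, was level too, with signals of 13897 and 15629 and a log2 ratio of -0.01, within a spot noise of 0.07. *Junb*, a JUN family member that often restrains JUN, was lower in *Drp1*LiKO cells. Its brightest probe (NM_008416, chr8:87500843-87500902) gave 20104 in control and 17689 in *Drp1*LiKO cells, 1.29-fold lower after scaling. This log2 ratio of -0.37 was 5.73 times the spot noise and 1.80 times the scanner error. A second probe, 1038 bases away on the same transcript, gave 225 and 191, with a log2 ratio of -0.42. A further probe of the name, for a separate cDNA, was not well above background on either array. Both detected *Junb* probes thus had a lower scaled signal in *Drp1*LiKO cells.

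*Atf3*, a stress-induced partner and repressor at AP-1 and ATF sites, was among the 3 genes with a higher signal. Its probe (NM_007498, chr1:192994547-192994606) gave 1441 in control and 2270 in *Drp1*LiKO cells, 1.39-fold higher, with a log2 ratio of 0.47 that was 4.45 times the spot noise and 2.32 times the scanner error. Of all genes, 86.9% had a lower ratio.

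*Egr1* (NM_007913), a zinc finger factor induced through serum response factor, had signals of 1664 and 1666, which after scaling is a log2 ratio of -0.18, or 0.88 times the scanner error. *Ier2* (NM_010499, chr8:87185211-87185245), which encodes a short-lived nuclear protein, had 1340 and 1298 and a log2 ratio of -0.23, or 1.12 times the scanner error. A second *Ier2* probe, for a separate cDNA (AK032692) 1588 bases away, was dim and went the other way, from 27.0 to 40.2, a log2 ratio of 0.39 with a spot noise of 0.34. The probes of *Ier2* therefore gave no common direction.

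*Myc*, which drives ribosome production and growth, had the lowest ratio of the 10 genes. Its brightest probe (NM_010849, chr15:61821417-61821476) gave 3977 in control and 3378 in *Drp1*LiKO cells, 1.34-fold lower, with a log2 ratio of -0.42 that was 4.50 times the spot noise and 2.05 times the scanner error. The other probe, 492 bases away, gave 519 and 445, a log2 ratio of -0.40. On the arrays the probes of *Myc* thus had the same direction and nearly the same size, and 15.6% of all genes had a lower ratio than *Myc*. In the normalized values that the authors deposited, the log2 ratios of these probes were -0.27 and 0.04.

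*Ier3* (NM_133662, chr17:35959528-35959587), an early response gene that affects cell survival under stress, had the highest ratio. The control signal was 6103 and the *Drp1*LiKO signal 9931, 1.43-fold higher, with a log2 ratio of 0.52 that was 6.62 times the spot noise and 2.55 times the scanner error. The scanner's raw means of the same spots, before the corrections by the software, were 6485 and 10526. In the table of normalized values deposited beside the arrays the direction of *Ier3* was the opposite, with a control value of 6365 and a *Drp1*LiKO value of 2876. The *Drp1*LiKO column of that table did not fully keep the order of the *Drp1*LiKO array (rank correlation 0.988). Its value for *Ier3* lay 1.69 on the log2 scale under what the array gave. The direction of *Ier3* thus rests on which of the deposited values is used. *Dusp1* (NM_013642, chr17:26642624-26642683), the phosphatase of JNK and p38, gave 16653 and 23521, 1.24-fold higher, with a log2 ratio of 0.32 that was 4.70 times the spot noise and 1.55 times the scanner error.

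**Figure D3:**
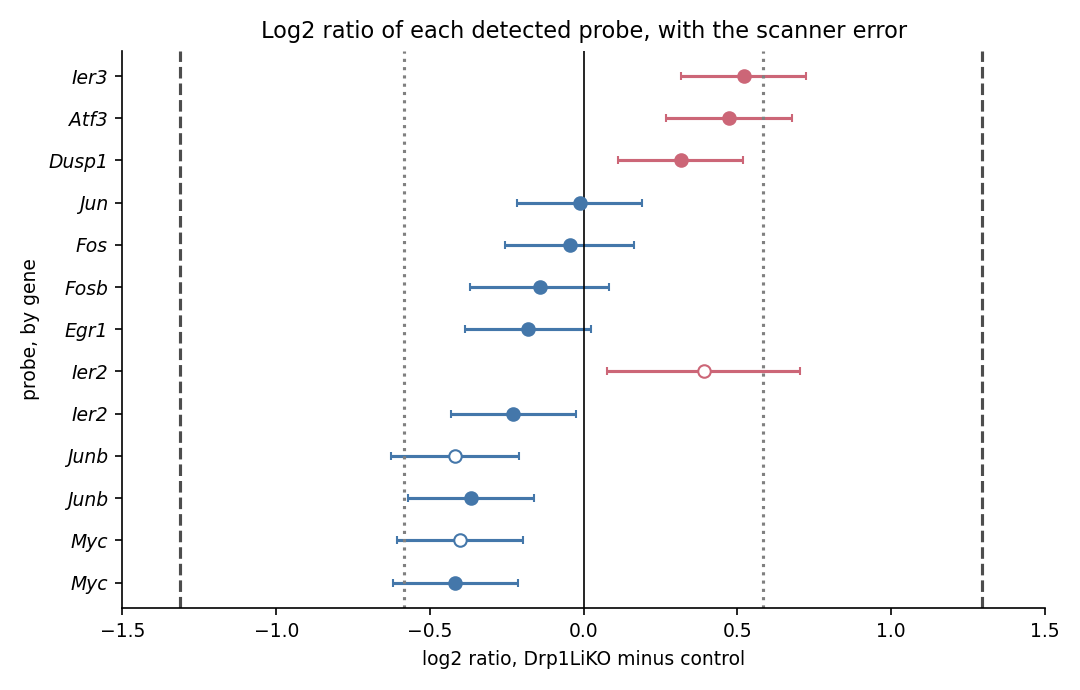
Log2 ratio, *Drp1*LiKO minus control (horizontal axis), of the 13 detected probes, labeled by gene (vertical axis), with bars of 1 scanner error on each side, filled points for the brightest probe of a gene and open points for its other probe. Dotted lines mark 1.5-fold and dashed lines a Z score of 2. All points lie inside the dotted lines, the pairs of *Junb* and *Myc* probes lie side by side, and the probes of *Ier2* lie on opposite sides of 0.

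In all, 6 of the 10 ratios (*Ier3*, *Atf3*, *Dusp1*, *Ier2*, *Junb* and *Myc*) were over 2 times the spot noise, and 3 of them (*Ier3*, *Atf3* and *Myc*) were over 2 times the scanner error. Of 11 other ways of processing the values, 5 leave these ratios as they are by construction. Across the 6 that change them, *Atf3* and *Dusp1* stayed above 0 and *Junb*, *Myc*, *Egr1* and *Fosb* stayed below it. *Fos*, *Ier2* and *Ier3* changed sign in 1 of them, *Ier3* and *Fos* in the deposited normalized values, and *Jun* lay too near 0 for its sign to be read.

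**Figure D4:**
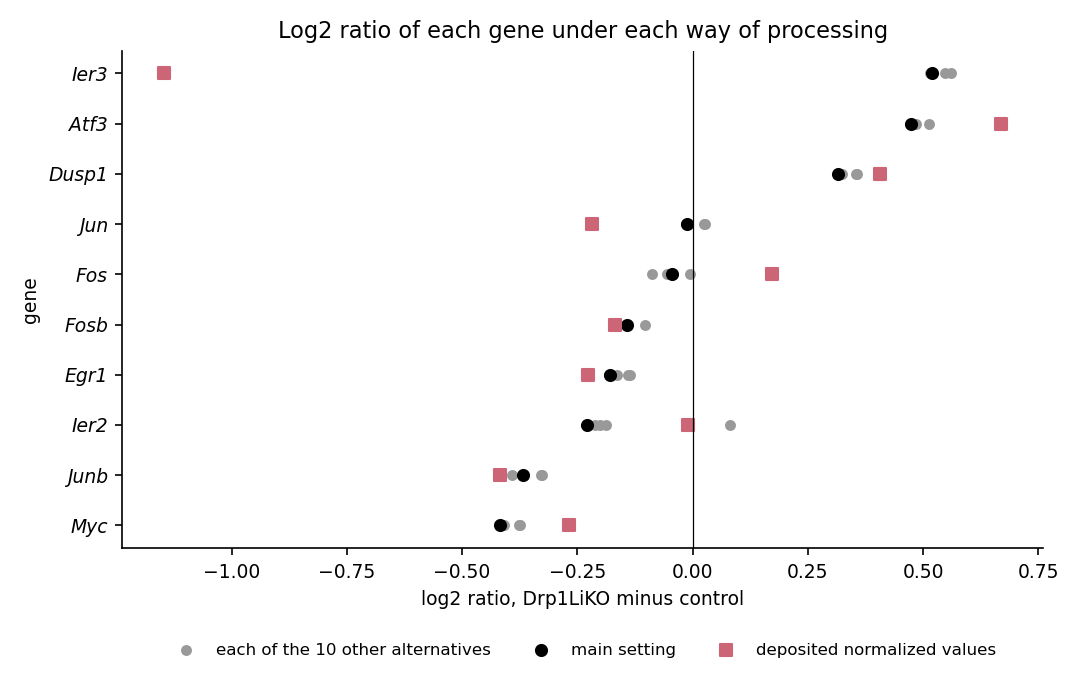
Log2 ratio, *Drp1*LiKO minus control (horizontal axis), of each gene (vertical axis) in the main setting (black circles), in 10 other settings (gray circles) and in the deposited normalized values (red squares). For most genes the points overlap, whereas *Ier3* lies at 0.52 in the main setting and at -1.15 in the deposited values.

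Other genes of the same pathways were counted in lists, of which *Srf* and *Ppp1r15a* each stand in 2. Of the 10 other AP-1 and bZIP partners, 7 were higher and 3 lower in *Drp1*LiKO cells, with a median log2 ratio of 0.08. *Jund*, the JUN family member present in resting cells, had signals of 21586 and 32580 and a log2 ratio of 0.41. *Jdp2*, a repressor that pairs with JUN, had 1351 and 1017, a log2 ratio of -0.59. *Batf2* was past the Z score threshold but was not well above background in control cells, so it was at least 2.65-fold higher, with signals of 17.4 and 54.7. With normexp background correction its log2 ratio was 0.33, so the bound holds for the main processing alone. Of 16 other immediate early transcription factors compared, 9 were higher and 7 lower, with a median of 0.08, and *Egr2* alone was past the threshold. *Egr2*, a relative of *Egr1*, had signals of 29.3 and 87.0 and a log2 ratio of 1.39, or 0.51 with normexp background correction. *Nr4a2*, an orphan nuclear receptor, had 412 and 269 and the lowest ratio, -0.80. *Egr3* and *Npas4* were not well above background on either array.

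Of 23 other immediate early effectors, 9 were higher and 14 lower, with a median of -0.23. *Areg*, which encodes the EGF receptor ligand amphiregulin, had the highest ratio, 563 in control and 2474 in *Drp1*LiKO cells, 3.87-fold higher. *Nfkbia*, the inhibitor of NF-κB, had the lowest, 6625 and 3840, a log2 ratio of -0.97 that did not reach the threshold. Among the 16 relatives of *Dusp1* and feedback inhibitors of ERK, 5 were higher and 11 lower, with a median of -0.11. *Dusp9*, a phosphatase of ERK, had 242 and 691, a log2 ratio of 1.33 and a Z score of 2.05. *Dusp6*, another phosphatase of ERK, had 9396 and 4619, a log2 ratio of -1.21 and a Z score of -1.84. The list thus held ratios of either sign at its ends.

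The MAP kinases and their activators and the factors that bind immediate early promoters held no gene past the threshold at its brightest probe. A dimmer probe of *Map2k7* was past it, with a log2 ratio of -1.62, whereas its brightest probe was at 0.06. Of 18 kinases and activators, 7 were higher and 11 lower, from *Egfr*, the EGF receptor (6647 and 4799, log2 ratio -0.65), to *Mapk8*, which encodes JNK1 (81.9 and 154, log2 ratio 0.73). Of 12 promoter-binding factors and coactivators, 7 were higher and 5 lower. Among those detected on both arrays they ran from *Elk4*, a partner of serum response factor (333 and 280, log2 ratio -0.43), to *Mkl2*, a coactivator of it (2279 and 3338, log2 ratio 0.37). The medians were -0.09 and 0.04.

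Around *Myc*, 4 of 9 partners and antagonists had a log2 ratio above 0 and 5 below it, with a median of -0.11. That median was the ratio of *Mycn*, which was dim in control cells (9.10 and 19.1). Its control signal was raised to the lowest detected signal, so its ratio is a lower bound without a direction. Without raising dim signals, the median of the list was 0.05. *Mxd3*, an antagonist that competes for MAX, was detected on the control array alone, and its signals of 38.4 and 9.45 put it at least 2.91-fold lower. This bound holds for the main processing alone, as normexp background correction gave a log2 ratio of -0.62. *Mxd4*, of the same family, had 1043 and 606, a log2 ratio of -0.96, and *Mlx* had 1704 and 2380, a log2 ratio of 0.30. Of 14 known MYC targets, 2 were higher and 12 lower, none past the threshold. Their ratios were small, with a median of -0.13, from *Bop1* (8693 and 7132, log2 ratio -0.47) to *Pes1* (8649 and 11780, log2 ratio 0.26), both of which act in ribosome assembly.

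Of 15 known AP-1 targets, 10 were higher and 5 lower, with 5 past the threshold above and 1 below, and a median of 0.53. *Plau*, which encodes urokinase, had signals of 167 and 505, a log2 ratio of 1.41. *Ccl2*, a chemokine for monocytes, had 66315 and 27168, a log2 ratio of -1.47. The other genes past the threshold were not well above background in control cells. *Mmp12* was 5.75-fold higher over a dim control signal of 20.6, which was not raised. *Mmp3* was at least 3.64-fold, *Il6* at least 3.37-fold and *Mmp10* at least 2.60-fold higher. The signals of the 4 genes in *Drp1*LiKO cells were 135, 75.2, 69.7 and 53.7. Second probes of *Mmp12* and *Il6* had smaller log2 ratios, 0.64 and 0.92. With normexp background correction the log2 ratios were 1.02 (*Mmp12*), 0.67 (*Mmp3*), 0.63 (*Il6*) and 0.40 (*Mmp10*), so these sizes and bounds hold for the main processing alone. With only probes detected on both arrays, the median of the list was -0.09. Of 7 known EGR1 targets, 1 was higher and 6 lower, with a median of -0.50. *Icam1*, an adhesion molecule for leukocytes, had 3925 and 1586, a log2 ratio of -1.49 and a Z score of -2.27, and *Pdgfa* had 14861 and 17235, a log2 ratio of 0.03.

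*Atf3* is also induced by ATF4 in the stress response that stops translation. Of 10 genes of this branch, 7 were higher and 3 lower in *Drp1*LiKO cells, none past the threshold, with a median of 0.16. *Atf4* had signals of 63644 and 92026, a log2 ratio of 0.35. *Ddit3*, which encodes CHOP, had 1885 and 2820, a log2 ratio of 0.40. *Trib3* had a log2 ratio of 0.17 and *Nupr1* of 0.07. The list ran from *Chac1*, at -0.37, to *Ppp1r15a*, which encodes a subunit of the phosphatase that restarts translation, at 0.57. The ratio of *Atf3*, 0.47, lay within this range.

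**Figure D5:**
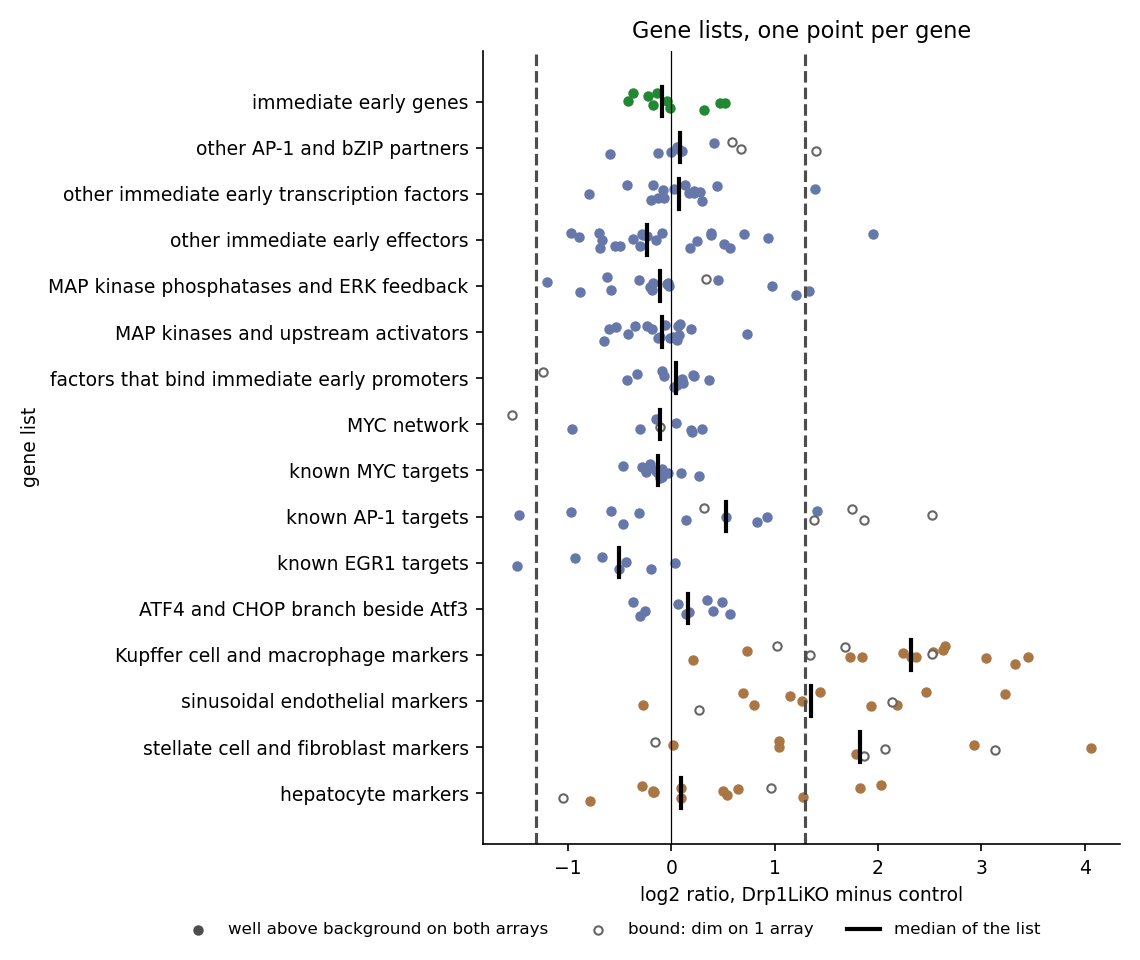
Log2 ratio, *Drp1*LiKO minus control (horizontal axis), of each gene of a list (rows). Filled points are genes detected on both arrays and open points are genes dim on 1 array. Black bars are medians, and dashed lines mark a Z score of 2. The 10 immediate early genes (green) lie within 0.6 of 0, 9 of the 11 pathway lists (blue) have medians between -0.23 and 0.16, the AP-1 and EGR1 target lists have 0.53 and -0.50, and the macrophage, endothelial and stellate marker lists (brown) lie to the right.

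Markers of other liver cells moved with genotype on the same arrays. All 17 Kupffer cell and macrophage markers compared were higher in *Drp1*LiKO cells at their brightest probes, 14 past the threshold. Their summed signals were 11584 and 31185 in control and *Drp1*LiKO cells, with single signals from 4.24 to 6407 and from 42.1 to 9593. Their median log2 ratio was 2.32, and 4 were not well above background in control cells. Endothelial markers were higher for 11 of 12 genes (median 1.35, summed signals of 4695 and 9962), with 2 dim in control cells. Stellate cell and fibroblast markers were higher for 9 of 10 (median 1.83, summed signals of 23131 and 34817), with 4 dim in control cells. The stellate marker below 0 was among these dim genes, so it had no direction. Each of the 2 lists had 6 genes past the threshold. Other probes of the macrophage markers *Mpeg1* and *Csf1r* had log2 ratios down to -0.49 and -0.02. Those of *Stab2* (endothelial) and *Col1a2* (stellate) went down to -0.24 and -0.18. *Acta2*, at 21437 and 24640 with a log2 ratio of 0.02, made up most of the stellate sums. Of the 3 *Acta2* probes kept, the brightest gave these values, and a dimmer one was higher in *Drp1*LiKO cells, at 2.20. With normexp background correction, the medians of the macrophage, endothelial and stellate lists were 1.64, 0.84 and 0.74. Of 15 hepatocyte markers, 9 were higher and 6 lower (median 0.10, summed signals of 678583 and 787856), 13 were detected on both arrays, and 2 (*Cyp3a11* and *Ahsg*) were past the threshold, 4.08-fold and 3.55-fold higher. The single markers named here were chosen after their values were seen. Neutrophil markers were detected for 3 of 9 genes (2 higher) and cholangiocyte markers for 4 of 6 (2 higher). T, NK and B cell markers were detected for 2 of 9, of which 1 was lower at its brightest probe. The other was dim in control cells and raised to the lowest detected signal there, so its ratio has no direction. Immediate early genes are also expressed in these other cells, and the part of the markers in any ratio given here was not tested. In such a mixture, fewer cells of a type and less RNA per cell cannot be told apart. *Dnm1l*, which encodes DRP1, had signals of 2602 and 1217 in the 2 genotypes, 2.43-fold lower, with a Z score of -1.95, and was 22.8 and 20.9 at a dim second probe.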

How the data were processed

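RNA of control and *Drp1*LiKO primary hepatocytes was measured on 1-color Agilent mouse arrays, 1 per genotype. For each array, the authors deposited the scanner software's spot table, which gives an intensity per spot. The processing notes name Feature Extraction 9.5.1.1, whereas the file headers give another version. Normalized intensities that the authors deposited in a further table, by a method not given in the sources used here, served as an alternative only. Its control column kept the order of the control array (rank correlation 1), whereas 3.57% of the detected probes of its *Drp1*LiKO column differed over 2-fold from the array.

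From the processed intensities, control spots and outlier spots (71 in control, 63 in *Drp1*LiKO cells) were dropped. The mean log2 signal of each probe was set relative to the 75th percentile over the probes of its array. A probe was kept if either array detected it well above background, as held for 30275 of 56605 (48.2% of probes were detected in control and 52.1% in *Drp1*LiKO cells). Dimmer signals were raised to the lowest detected signal, 18.2 in control and 15.0 in *Drp1*LiKO cells, unless higher themselves. Ratios with a raised signal are bounds ("at least"). A gene was its brightest probe. Z scores refer to the mean and SD of all ratios kept, with a threshold of 2. Spot noise is the median SD of the 10 probes nearest in signal among 300 printed 10 times. The number of arrays limits the precision.

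The 10 genes and all lists were chosen with earlier results of these data known. In each pathway list, the genes past the threshold and the highest and lowest ratio among genes detected on both arrays are named, with *Atf4*, *Ddit3*, *Trib3*, *Nupr1* and *Dnm1l*. Genes carry the names of the array design, and probe positions are given in mm9, as in the files. Exons and UTRs were not assigned. Promoter windows are from RefSeq in GRCm38.p6.

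The alternatives were quantile normalization, spike-in scaling (7 probes), normexp with an offset of 50, the deposited normalized values, outlier spots kept, no floor, the median of a gene's probes, 2 other Z scores (robust, and among probes of similar signal in 20 bins) and 2 other filters on dim probes. The steps were tested on simulated data made from the control array. Of 200 genes changed by 2 or 3 on the log2 scale among 18788 compared, 197 were past the threshold with the right sign, as were 57 unchanged genes of either sign. The software was limma 3.58.1 in R 4.3.3, and numpy 2.4.6, pandas 2.3.3 and matplotlib 3.10.9 in Python 3.11.15.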

Additional observations from a re-analysis of the deposited data

How the results depend on the processing

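None of the 10 immediate early genes was past a Z score of 2 under any of the 11 alternatives. The Z score farthest from 0 was that of *Ier3* in each, and lay farthest out in the deposited normalized values, at -1.84. The median log2 ratio of the 10 genes ran from -0.19 (deposited values) to -0.03 (median of the probes of a gene), and 3 or 4 genes were above 0. Under the deposited values *Ier3* was at -1.15 and *Fos* at 0.17, and *Ier3* and *Atf3* were past 1.5-fold. Spike-in scaling raised every ratio by 0.04, and *Jun*, at -0.01 in the main setting, was then at 0.03. *Ier2* was at 0.08 as the median of its probes. The cause of the differences from the deposited values was not tested. Without a filter on dim probes the median of all 37071 genes was -0.47, so ratios there stand higher relative to it. With the robust Z score, 1722 genes were past the threshold above and 1443 below, against 705 and 566 in the main setting, and without a filter 1355 were past it above and 597 below. Of the named genes past the threshold, *Areg* and *Mmp12* were past it under each alternative that gave a value, *Plau*, *Ccl2* and *Icam1* under all but the one without a floor, *Dusp9* in 9 of 11, *Egr2* in 8 of 11, *Mxd3* in 8 of 10 (-0.62 with normexp and -0.87 in the deposited values), *Mmp3* and *Il6* in 7 of 10, and *Batf2* and *Mmp10* in 6 of 10. In the deposited values *Mmp3* was at 0.96, *Il6* at 0.83, *Batf2* at 0.58 and *Mmp10* at 0.35, and with normexp *Batf2* was at 0.33 and *Egr2* at 0.51. Medians of lists near 0 changed sign for other immediate early transcription factors, for MAP kinases and for promoter-binding factors under 1 alternative each, and for the MYC network under 2. Genes dim on 1 array have no value when detection on both is required. No paired analysis was possible because each genotype had 1 array.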
